A study of Mus musculus with 20 samples.

Results

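The 36 genes described here encode the sarcomere and the machinery that couples it to contraction in striated muscle. They were chosen by name, from the platform's gene symbols, and all 36 had a value among the 19936 genes measured. Each of them had exactly 1 probe set with its symbol alone, so no choice between probe sets was made. Expression was measured in single whole limbs of 129Sv mouse embryos at embryonic day 13.5 on Affymetrix GeneChip 1.0 ST arrays. The 20 arrays form 4 groups of 5, forelimbs and hindlimbs of wild-type and of Lmx1b-/- embryos, the latter called knockouts here. The labels give genotype, limb, side and age, name no treatment, and do not say whether limbs shared an embryo, so the p-values reflect only how much these arrays spread. In such bulk samples fewer muscle cells and less RNA per muscle cell cannot be told apart.

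Striated muscle contracts when myosin heads on thick filaments pull on actin thin filaments within the sarcomere, the repeating unit that is bounded by Z discs and centred on the M band. Calcium released from the sarcoplasmic reticulum binds troponin, which moves tropomyosin off the myosin-binding sites of actin. In the embryonic limb, precursors that migrated in from the somites differentiate under Myf5, MyoD and myogenin and fuse into fibres, which at first make embryonic, slow and cardiac isoforms of many sarcomere proteins before adult isoforms take over. Lmx1b, a LIM-homeodomain factor, sets dorsal identity in limb mesenchyme.

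The labels were checked first. Lmx1b read 6.30 ± 0.127 on the log2 scale (SD, n = 5) in wild-type forelimbs, 6.45 ± 0.083 in wild-type hindlimbs, 5.72 ± 0.079 in knockout forelimbs and 5.92 ± 0.114 in knockout hindlimbs, and knockout and wild type did not overlap in either limb. Where the probe set lies relative to the deleted part was not checked. The limb labels held too: Tbx5, a forelimb factor, lay between 8.26 and 8.93 in all forelimbs and between 4.38 and 5.09 in all hindlimbs, and Pitx1, a hindlimb factor, was higher in every hindlimb than in any forelimb. The muscle regulators Myod1 and Myog lay at 7.50 or above on every array, against array medians over all probe sets of 4.84 to 4.99. Y-linked genes marked 13 arrays as male and 7 as female. All 5 wild-type forelimbs were male, whereas knockout forelimbs held 2 male and 3 female arrays and each hindlimb group 3 male and 2 female ones.

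Wild-type forelimbs had the highest sarcomere expression of the 4 groups. The mean log2 level over the 36 genes was 6.98, 6.99, 7.29, 7.36 and 7.43 in the 5 wild-type forelimbs, with a group mean of 7.21 ± 0.211 (SD, n = 5). It was 6.49, 6.70, 6.72, 6.34 and 6.66 in wild-type hindlimbs (6.58 ± 0.164), 6.94, 6.75, 6.94, 6.57 and 6.72 in knockout forelimbs (6.78 ± 0.159) and 6.39, 6.68, 6.38, 6.48 and 6.54 in knockout hindlimbs (6.49 ± 0.123). All wild-type forelimbs lay above all other limbs, by a narrow margin for replicates 1 and 2, and the other 3 groups overlapped. Among male arrays alone the range was 6.98 to 7.43 in 5 wild-type forelimbs and 6.72 to 6.94 in 2 knockout forelimbs. It was 6.34 to 6.66 in 3 wild-type hindlimbs and 6.39 to 6.68 in 3 knockout hindlimbs. As all wild-type forelimbs were male and already lay above all other limbs, taking males alone could not undo their separation. No female wild-type forelimb was measured. The male wild-type hindlimbs were the 3 lowest of their group.

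**Figure D1:**
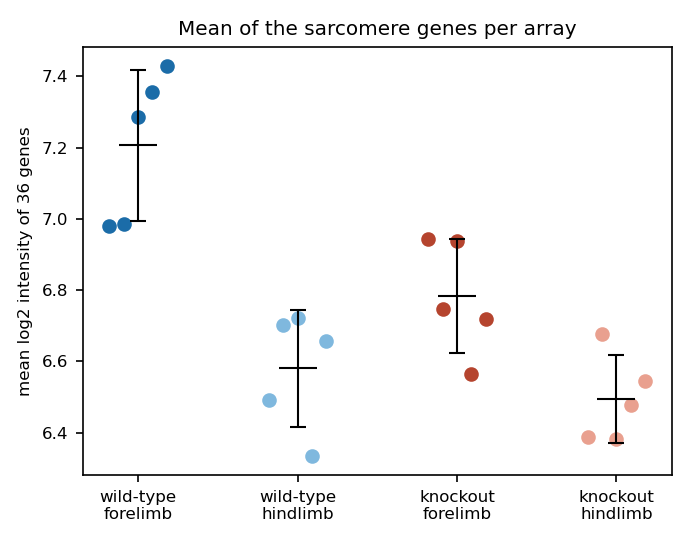
Mean log2 intensity of the 36 sarcomere genes (vertical axis) on each of 20 arrays, by genotype and limb type (horizontal axis); points are arrays. The 5 wild-type forelimbs sit between 6.98 and 7.43, above all 15 other arrays, which sit between 6.34 and 6.94.

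The first comparison asked how the 2 limb types differ at this stage in wild-type embryos. Sarcomere genes were lower in the hindlimb throughout: 31 of 36 fell, none rose, and all 36 changes were below 0. Of all 19936 genes, 2.49% fell and 0.772% rose in the same test (limma, Benjamini-Hochberg adjusted p under 0.05). The median change of the 36 genes was -0.62 on the log2 scale, against 0.02 for all genes, and the largest were those of the developmental myosins Myh8 and Myh3. In 24 of the 36 genes every hindlimb array lay below every forelimb array, which was true of 3.2% of all genes. The 5 genes that did not pass were Cacna1s, Synpo2l, Tcap, Xirp1 and Myoz1.

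In knockouts the same comparison gave 3 genes that fell, Myl1, Tnnt2 and Klhl41, against 0.441% of all genes, and none rose, against 0.176%. The median change was -0.32, 32 of 36 changes were below 0, and hindlimb and forelimb arrays did not overlap in 4 genes (0.943% of all genes): Myl1, Tnnt1, Myom2 and Klhl41. The comparisons in wild type and in knockouts share no array. Across the 36 genes their changes correlated with Pearson's r = 0.729, a description over genes that are measured on the same arrays. For 35 of 36 genes the change lay further below 0 in wild type than in knockouts. Among the 31 genes that fell in wild type, the median ratio of the knockout change to the wild-type change was 0.519. These genes were picked by their wild-type change, which alone can lower the ratio, so it does not measure a loss in knockouts.

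**Figure D2:**
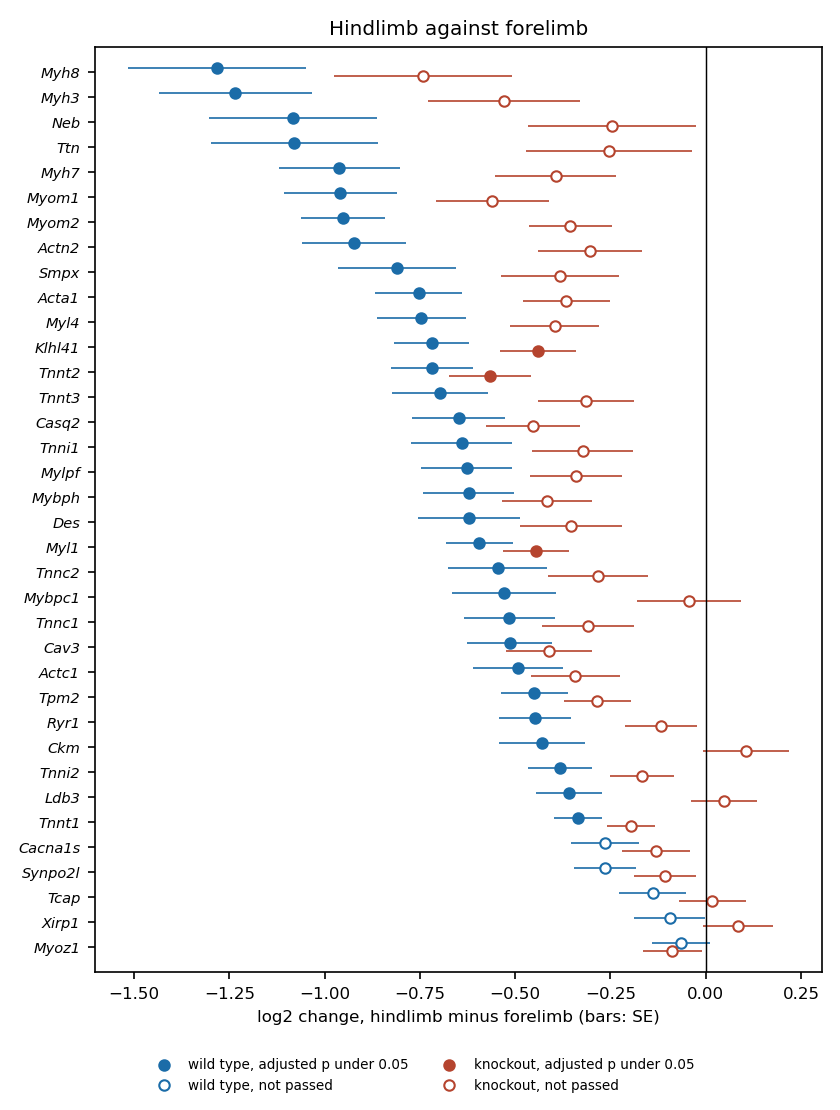
Log2 change, hindlimb minus forelimb (horizontal axis, bars are standard errors), of each of the 36 genes in wild type and in knockouts; filled points passed adjusted p under 0.05. Filled points number 31 for wild type and 3 for knockouts, and the wild-type point lies further below 0 in 35 of 36 genes.

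Promoter sequence is shown for the 3 genes whose fall in hindlimbs passed the threshold in both genotypes and for Acta1, the gene of the main adult skeletal actin, whose fall passed in the wild-type hindlimb and in the knockout forelimb. The windows hold the 250 bases before the annotated start, from RefSeq on GRCm38.p6, and are written 5′ to 3′ on the gene's strand. They lie at chr1:135836084-135836333 on the plus strand for the upstream of 2 Tnnt2 starts, chr2:69669870-69670119 on the plus strand for Klhl41, chr1:66945057-66945306 on the minus strand for Myl1 and chr8:123894776-123895025 on the minus strand for Acta1. Capitals mark CAGCTG, a form of the E box to which MyoD-family factors bind, and any MEF2 site or CArG box, the binding sites of MEF2 factors and of serum response factor.
Tnnt2: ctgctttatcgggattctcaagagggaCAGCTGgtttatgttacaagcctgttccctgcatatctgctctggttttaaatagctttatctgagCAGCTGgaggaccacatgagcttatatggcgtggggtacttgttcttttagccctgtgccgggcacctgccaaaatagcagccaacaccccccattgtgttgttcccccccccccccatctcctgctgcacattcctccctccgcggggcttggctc
Klhl41: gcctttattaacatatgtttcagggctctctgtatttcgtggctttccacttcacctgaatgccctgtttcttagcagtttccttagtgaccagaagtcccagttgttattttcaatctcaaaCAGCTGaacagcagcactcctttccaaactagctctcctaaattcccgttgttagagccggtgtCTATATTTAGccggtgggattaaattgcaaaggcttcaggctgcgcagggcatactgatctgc
Myl1: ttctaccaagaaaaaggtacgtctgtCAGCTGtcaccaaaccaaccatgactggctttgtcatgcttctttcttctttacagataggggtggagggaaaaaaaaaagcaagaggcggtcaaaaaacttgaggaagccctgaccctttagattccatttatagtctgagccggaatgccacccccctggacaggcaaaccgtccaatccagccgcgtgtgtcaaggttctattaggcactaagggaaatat
Acta1: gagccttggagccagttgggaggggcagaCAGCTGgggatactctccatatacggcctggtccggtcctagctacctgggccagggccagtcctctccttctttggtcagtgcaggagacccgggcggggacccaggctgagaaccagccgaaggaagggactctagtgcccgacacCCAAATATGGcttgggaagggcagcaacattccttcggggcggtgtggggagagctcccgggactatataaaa
Each of the 4 windows printed held CAGCTG, with 2 copies in that of Tnnt2. Klhl41 also held a MEF2 site and Acta1 a CArG box. The window of the other Tnnt2 start, chr1:135836739-135836988 on the plus strand, held no CAGCTG and is not printed.

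The same 250 bases were searched on both strands for the 29 of 36 genes with an entry, which gave 34 windows, and for all 32851 windows of the table. CAGCTG was present in 44.1% of the sarcomere windows against 13.0% of all windows, and the general E box CANNTG, which includes it, in 82.4% against 66.2%. A MEF2 site was present in 17.6% against 2.92% and a CArG box in 14.7% against 1.47%. The MCAT element CATTCC was present in 20.6% against 12.6% and the TATA box TATAAA in 17.6% against 12.4%. Windows of 1 gene can overlap, and a match is a description of letters, not a binding site.

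All 8 thick filament genes fell in the wild-type hindlimb. Myh3, the embryonic myosin heavy chain, read 8.31, 8.29, 8.82, 9.22 and 9.20 in wild-type forelimbs and 7.36, 7.68, 7.91, 6.88 and 7.85 in wild-type hindlimbs. Knockout forelimbs read 8.45, 8.10, 8.10, 7.70 and 7.92, and knockout hindlimbs 7.56, 7.85, 7.25, 7.43 and 7.54. It was 2.35-fold lower in the wild-type hindlimb, where it fell by 1.23 (SE 0.200, adjusted p = 0.00104), and 3 of the 5 wild-type forelimbs lay above all other limbs. Myh8, the perinatal heavy chain, read 6.77, 6.96, 7.56, 7.96 and 7.94 in wild-type forelimbs and 6.02, 6.37, 6.60, 5.42 and 6.37 in wild-type hindlimbs. Knockout forelimbs read 6.98, 6.83, 6.97, 6.28 and 6.68, and knockout hindlimbs 6.07, 6.57, 5.77, 5.84 and 5.78. Its 2.43-fold fall in the wild-type hindlimb was the largest of the 36, at -1.28 (SE 0.234, adjusted p = 0.00326) on the log2 scale. Myh7, the slow heavy chain shared with the heart, read 5.94, 5.95, 6.52, 6.64 and 6.85 in wild-type forelimbs and 5.28, 5.72, 5.60, 5.09 and 5.40 in wild-type hindlimbs. Knockout forelimbs read 5.94, 5.76, 5.74, 5.44 and 5.46, and knockout hindlimbs 5.08, 5.46, 5.39, 5.04 and 5.40. All 5 wild-type forelimbs were above all other limbs for Myh7, replicate 1 by less than the rounding of these values, and the gene fell by 0.96 (SE 0.159, adjusted p = 0.00127) in the wild-type hindlimb. The heavy chain genes are closely similar in sequence, so some of the signal of 1 probe set may come from another gene of the family.

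The myosin light chains support the lever arm of the myosin head. Myl1, the essential light chain of fast fibres, read 8.01, 7.83, 8.13, 8.05 and 8.11 in wild-type forelimbs and 7.38, 7.51, 7.57, 7.23 and 7.46 in wild-type hindlimbs. Knockout forelimbs read 7.86, 7.76, 7.91, 7.60 and 7.69 and knockout hindlimbs 7.09, 7.58, 7.25, 7.32 and 7.36. The limb types were separate in both genotypes, and Myl1 fell by 0.59 (SE 0.087, adjusted p = 0.000436) in wild type and fell by 0.45 (SE 0.087, adjusted p = 0.015) in knockouts. Myl4, the embryonic and atrial essential light chain, read 8.46, 8.29, 8.72, 8.69 and 8.85 in wild-type forelimbs and 7.80, 7.89, 8.02, 7.59 and 7.99 in wild-type hindlimbs. Knockout forelimbs read 8.33, 8.10, 8.47, 7.94 and 8.0, and knockout hindlimbs 7.61, 8.04, 7.62, 7.79 and 7.80. It fell by 0.75 (SE 0.117, adjusted p = 0.000722) in the wild-type hindlimb, with no overlap. Mylpf, the regulatory light chain of fast fibres, read 7.38, 7.29, 7.84, 7.72 and 7.84 in wild-type forelimbs and 6.93, 7.05, 7.06, 6.75 and 7.15 in wild-type hindlimbs. Knockout forelimbs read 7.33, 7.09, 7.44, 6.84 and 7.03, and knockout hindlimbs 6.78, 7.05, 6.70, 6.77 and 6.72. It also separated the wild-type limbs and fell by 0.63 (SE 0.120, adjusted p = 0.00455) in the hindlimb.

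Myosin-binding proteins cross-link and regulate the thick filament. Mybpc1, the slow binding protein C, read 7.18, 7.08, 7.46, 7.45 and 7.67 in wild-type forelimbs and 6.64, 6.93, 7.24, 6.39 and 7.0 in wild-type hindlimbs. Knockout forelimbs read 7.12, 6.97, 7.08, 6.82 and 6.74, and knockout hindlimbs 6.67, 7.15, 6.79, 6.97 and 6.92. The wild-type limbs overlapped, and Mybpc1 fell by 0.53 (SE 0.136, adjusted p = 0.0341) in the hindlimb. Mybph, binding protein H, read 8.01, 7.94, 8.05, 8.25 and 8.28 in wild-type forelimbs and 7.33, 7.76, 7.56, 7.18 and 7.58 in wild-type hindlimbs. Knockout forelimbs read 7.99, 7.69, 7.90, 7.41 and 7.60, and knockout hindlimbs 7.02, 7.54, 7.24, 7.43 and 7.27. Its wild-type limbs did not overlap, and it fell by 0.62 (SE 0.119, adjusted p = 0.00463).

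All 11 thin filament genes fell in the wild-type hindlimb as well, with log2 changes from -1.08 (Neb) to -0.34 (Tnnt1). Acta1 read 9.37, 9.77, 9.76, 9.95 and 9.90 in wild-type forelimbs and 8.94, 9.16, 9.12, 8.75 and 9.0 in wild-type hindlimbs. Knockout forelimbs read 9.29, 9.11, 9.32, 8.98 and 9.25, and knockout hindlimbs 8.76, 9.18, 8.54, 8.88 and 8.76. Every wild-type forelimb lay above every other limb, and Acta1 fell by 0.75 (SE 0.114, adjusted p = 0.000539) in the wild-type hindlimb. Actc1, the cardiac actin that embryonic skeletal muscle also makes, read 11.80, 11.41, 11.98, 11.86 and 12.05 in wild-type forelimbs and 11.15, 11.35, 11.36, 11.26 and 11.51 in wild-type hindlimbs. Knockout forelimbs read 11.77, 11.66, 11.80, 11.54 and 11.54, and knockout hindlimbs 10.92, 11.42, 11.19, 11.56 and 11.50. Its wild-type limbs overlapped, through forelimb replicate 2, and it fell by 0.49 (SE 0.118, adjusted p = 0.0223).

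Of the tropomyosin-binding troponin T genes, Tnnt1 (slow) read 8.09, 8.05, 8.0, 8.06 and 8.15 in wild-type forelimbs and 7.75, 7.76, 7.91, 7.57 and 7.68 in wild-type hindlimbs. Knockout forelimbs read 7.96, 7.85, 7.98, 7.85 and 7.90, and knockout hindlimbs 7.55, 7.81, 7.67, 7.77 and 7.77. The spread within its groups was small, limb types were separate in both genotypes, and it fell by 0.34 (SE 0.064, adjusted p = 0.00463) in the wild-type hindlimb. Tnnt2, the cardiac form that is also made in embryonic skeletal muscle, read 8.51, 8.62, 8.53, 8.69 and 8.70 in wild-type forelimbs and 7.86, 8.11, 7.92, 7.76 and 7.80 in wild-type hindlimbs. Knockout forelimbs read 8.20, 8.27, 8.24, 7.71 and 8.21, and knockout hindlimbs 7.47, 7.70, 7.22, 7.60 and 7.80. It fell by 0.72 (SE 0.107, adjusted p = 0.000508) in the wild-type hindlimb and fell by 0.57 (SE 0.107, adjusted p = 0.0109) in the knockout hindlimb, where 4 of 5 forelimbs lay above all hindlimbs and replicate 4 did not. Tnnt3 (fast) read 7.73, 8.27, 8.18, 8.05 and 8.29 in wild-type forelimbs and 7.34, 7.57, 7.57, 6.98 and 7.57 in wild-type hindlimbs. Knockout forelimbs read 7.51, 7.28, 7.64, 7.24 and 7.69, and knockout hindlimbs 7.10, 7.47, 7.11, 7.06 and 7.05. All wild-type forelimbs were again the highest, and Tnnt3 fell by 0.70 (SE 0.126, adjusted p = 0.00306) in the wild-type hindlimb.

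Troponin I inhibits and troponin C binds calcium. Tnni1 (slow) read 7.53, 7.23, 7.96, 7.78 and 7.84 in wild-type forelimbs and 7.0, 7.11, 7.14, 6.71 and 7.20 in wild-type hindlimbs. Knockout forelimbs read 7.45, 7.15, 7.55, 7.05 and 7.22, and knockout hindlimbs 6.85, 7.31, 6.74, 6.99 and 6.91. Tnni2 (fast) read 5.92, 6.32, 6.34, 6.29 and 6.35 in wild-type forelimbs and 5.81, 5.91, 6.01, 5.66 and 5.91 in wild-type hindlimbs. Knockout forelimbs read 6.03, 5.94, 6.12, 5.79 and 6.10, and knockout hindlimbs 5.87, 5.87, 5.76, 5.89 and 5.75. Wild-type limbs were separate for Tnni1, which fell by 0.64 (SE 0.132, adjusted p = 0.00846), and overlapped for Tnni2, through forelimb replicate 1. Tnni2 fell by 0.38 (SE 0.084, adjusted p = 0.0125). Tnnc1 (slow and cardiac) read 9.74, 9.77, 10.004, 10.04 and 10.02 in wild-type forelimbs and 9.41, 9.60, 9.54, 9.07 and 9.37 in wild-type hindlimbs. Knockout forelimbs read 9.64, 9.41, 9.81, 9.21 and 9.56, and knockout hindlimbs 8.94, 9.54, 9.07, 9.35 and 9.17. Tnnc2 (fast) read 6.86, 7.15, 7.19, 7.47 and 7.49 in wild-type forelimbs and 6.72, 6.98, 6.64, 6.35 and 6.74 in wild-type hindlimbs. Knockout forelimbs read 6.88, 6.66, 6.95, 6.59 and 6.93, and knockout hindlimbs 6.19, 6.83, 6.44, 6.67 and 6.47. The first separated the wild-type limbs and fell by 0.52 (SE 0.120, adjusted p = 0.0186); the second overlapped, through forelimb replicate 1 and hindlimb replicate 7, and fell by 0.55 (SE 0.131, adjusted p = 0.0224).

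Tpm2, the beta tropomyosin, read 8.14, 8.25, 8.29, 8.44 and 8.48 in wild-type forelimbs and 7.87, 7.99, 8.06, 7.59 and 7.84 in wild-type hindlimbs. Knockout forelimbs read 8.13, 8.05, 8.20, 7.87 and 8.05, and knockout hindlimbs 7.61, 7.95, 7.72, 7.76 and 7.85. It fell by 0.45 (SE 0.088, adjusted p = 0.00591) in the wild-type hindlimb, with no overlap. Neb, the giant protein nebulin that runs along the thin filament, read 5.93, 5.61, 6.45, 6.63 and 6.79 in wild-type forelimbs and 4.93, 5.31, 5.62, 4.76 and 5.37 in wild-type hindlimbs. Knockout forelimbs read 6.0, 5.93, 5.69, 5.04 and 5.29, and knockout hindlimbs 5.57, 5.60, 5.07, 4.96 and 5.54. Neb fell by 1.08 (SE 0.221, adjusted p = 0.00773) in the wild-type hindlimb, which is 2.12-fold, although forelimb replicate 2 lay just below hindlimb replicate 8.

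Titin spans from the Z disc to the M band, where myomesins tie the thick filaments together, and all 3 genes of this group fell in the wild-type hindlimb with no overlap. Ttn read 5.94, 5.86, 6.53, 6.65 and 7.03 in wild-type forelimbs and 5.16, 5.38, 5.72, 4.93 and 5.43 in wild-type hindlimbs. Knockout forelimbs read 6.07, 6.23, 5.77, 5.15 and 5.83, and knockout hindlimbs 5.92, 5.57, 5.30, 5.14 and 5.85. It fell by 1.08 (SE 0.219, adjusted p = 0.00748). Myom1 read 6.63, 6.62, 6.78, 7.10 and 7.18 in wild-type forelimbs and 6.0, 6.05, 6.20, 5.40 and 5.88 in wild-type hindlimbs. Knockout forelimbs read 6.35, 6.24, 6.57, 6.08 and 5.93, and knockout hindlimbs 5.50, 6.03, 5.50, 5.68 and 5.63. It fell by 0.96 (SE 0.148, adjusted p = 0.000646). Myom2 read 5.89, 5.75, 6.20, 6.06 and 6.22 in wild-type forelimbs and 5.13, 5.08, 5.10, 4.90 and 5.15 in wild-type hindlimbs. Knockout forelimbs read 5.71, 5.18, 5.42, 5.04 and 5.07, and knockout hindlimbs 4.84, 5.03, 4.82, 4.95 and 5.0. Myom2 fell by 0.95 (SE 0.109, adjusted p = 2.4e-05) and had the smallest adjusted p of the 36 genes; for both myomesins all wild-type forelimbs lay above all other limbs.

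The Z disc group was divided: 3 of its 7 genes fell in the wild-type hindlimb, and the other 4 had log2 changes of -0.26 to -0.06. Actn2, the alpha-actinin that anchors thin filaments, read 8.18, 8.13, 8.50, 8.62 and 8.68 in wild-type forelimbs and 7.32, 7.60, 7.80, 7.13 and 7.64 in wild-type hindlimbs. Knockout forelimbs read 7.96, 7.73, 7.84, 7.37 and 7.49, and knockout hindlimbs 7.35, 7.62, 7.13, 7.37 and 7.40. It fell by 0.92 (SE 0.136, adjusted p = 0.000469), and its wild-type forelimbs were above all other limbs. Ldb3, a Z disc scaffold that binds alpha-actinin, read 5.18, 5.45, 5.57, 5.60 and 5.61 in wild-type forelimbs and 5.06, 5.33, 5.16, 4.94 and 5.11 in wild-type hindlimbs. Knockout forelimbs read 5.14, 4.85, 5.22, 5.0 and 5.15, and knockout hindlimbs 5.02, 5.12, 5.19, 5.12 and 5.17. Forelimb replicate 1 alone overlapped the hindlimbs, and Ldb3 fell by 0.36 (SE 0.086, adjusted p = 0.023). Klhl41, a Kelch protein that stabilises nebulin and the thin filament, read 8.73, 8.51, 8.72, 8.87 and 8.82 in wild-type forelimbs and 7.90, 8.13, 8.11, 7.75 and 8.17 in wild-type hindlimbs. Knockout forelimbs read 8.61, 8.46, 8.53, 8.33 and 8.36, and knockout hindlimbs 7.74, 8.18, 7.85, 8.22 and 8.10. Limb types were separate in both genotypes, and Klhl41 fell by 0.72 (SE 0.099, adjusted p = 0.000255) in wild type and fell by 0.44 (SE 0.099, adjusted p = 0.0409) in knockouts.

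Synpo2l, an actin-associated protein of the Z disc, read 5.91, 5.95, 6.0, 6.17 and 6.03 in wild-type forelimbs and 5.60, 5.85, 5.86, 5.65 and 5.77 in wild-type hindlimbs. Knockout forelimbs read 5.82, 5.54, 5.73, 5.75 and 5.70, and knockout hindlimbs 5.35, 5.64, 5.52, 5.66 and 5.84. Its wild-type forelimbs were above all other limbs, but the change of -0.26 between wild-type limbs did not pass (adjusted p = 0.0781). Myoz1, a calsarcin of fast fibres, Tcap, the titin cap, and Xirp1, the actin-binding Xin, had mean log2 levels under 5 over the 20 arrays, close to the array medians. Myoz1 read 4.65, 4.80, 4.82, 4.97 and 4.79 in wild-type forelimbs and 4.53, 4.84, 4.74, 4.85 and 4.74 in wild-type hindlimbs. Knockout forelimbs read 4.61, 4.55, 4.56, 4.53 and 4.56, and knockout hindlimbs 4.58, 4.20, 4.47, 4.53 and 4.60. Tcap ranged from 4.23 to 4.82 and changed by -0.14 between wild-type limbs. Xirp1 read 4.49, 4.33, 4.72, 4.92 and 4.79 in wild-type forelimbs and 4.59, 4.58, 4.55, 4.68 and 4.38 in wild-type hindlimbs. Knockout forelimbs read 4.58, 4.55, 4.51, 4.62 and 4.44, and knockout hindlimbs 4.43, 4.71, 4.53, 4.67 and 4.79, with every pair of groups overlapping.

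Of the 4 genes of excitation-contraction coupling, 3 fell in the wild-type hindlimb. Ryr1, the calcium release channel, read 5.17, 5.0, 5.37, 5.61 and 5.64 in wild-type forelimbs and 4.88, 4.89, 5.03, 4.86 and 4.89 in wild-type hindlimbs. Knockout forelimbs read 5.14, 4.99, 5.14, 4.94 and 5.03, and knockout hindlimbs 4.82, 5.01, 4.85, 5.01 and 4.97. It fell by 0.45 (SE 0.094, adjusted p = 0.00978), although forelimb replicate 2 lay below hindlimb replicate 8. Cacna1s, the voltage sensor that opens it, changed by -0.26 (SE 0.089, adjusted p = 0.116) and ranged from 4.72 to 5.41 over all arrays. Casq2, the calcium-storing calsequestrin of heart and slow muscle, read 7.52, 7.50, 7.84, 7.78 and 8.03 in wild-type forelimbs and 6.91, 7.15, 7.41, 6.74 and 7.22 in wild-type hindlimbs. Knockout forelimbs read 7.54, 7.36, 7.58, 7.05 and 7.26, and knockout hindlimbs 6.87, 7.09, 6.75, 6.94 and 6.87. It fell by 0.65 (SE 0.123, adjusted p = 0.00453), with no overlap between wild-type limbs. Cav3, the muscle caveolin of the surface membrane, read 5.52, 5.48, 5.73, 5.68 and 6.03 in wild-type forelimbs and 5.0, 5.22, 5.18, 5.02 and 5.44 in wild-type hindlimbs. Knockout forelimbs read 5.64, 5.27, 5.67, 5.16 and 5.64, and knockout hindlimbs 4.91, 5.14, 5.04, 5.08 and 5.17. It likewise separated the wild-type limbs and fell by 0.51 (SE 0.112, adjusted p = 0.0123).

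The last 3 genes serve the cytoskeleton and energy supply, and each fell in the wild-type hindlimb. Des, the intermediate filament desmin that links Z discs, read 6.38, 6.45, 6.74, 6.87 and 6.88 in wild-type forelimbs and 6.06, 6.25, 6.04, 5.70 and 6.15 in wild-type hindlimbs. Knockout forelimbs read 6.54, 6.10, 6.77, 6.20 and 6.39, and knockout hindlimbs 5.89, 6.36, 6.05, 5.80 and 6.14. It fell by 0.62 (SE 0.134, adjusted p = 0.0114). Smpx, a small protein of the costamere, read 6.55, 6.21, 7.04, 6.82 and 6.97 in wild-type forelimbs and 5.56, 6.05, 6.12, 5.75 and 6.07 in wild-type hindlimbs. Knockout forelimbs read 6.25, 6.01, 6.57, 5.93 and 5.80, and knockout hindlimbs 5.60, 6.05, 5.67, 5.65 and 5.66. It fell by 0.81 (SE 0.155, adjusted p = 0.00463). Neither overlapped between wild-type limbs. Ckm, the muscle creatine kinase that replenishes ATP, read 5.16, 5.79, 5.78, 5.90 and 5.74 in wild-type forelimbs and 5.25, 5.39, 5.08, 5.22 and 5.30 in wild-type hindlimbs. Knockout forelimbs read 5.30, 5.01, 5.34, 5.04 and 4.98, and knockout hindlimbs 5.13, 5.25, 5.27, 5.09 and 5.45. Forelimb replicate 1 lay with the hindlimbs, and Ckm fell by 0.43 (SE 0.113, adjusted p = 0.0382).

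**Figure D3:**
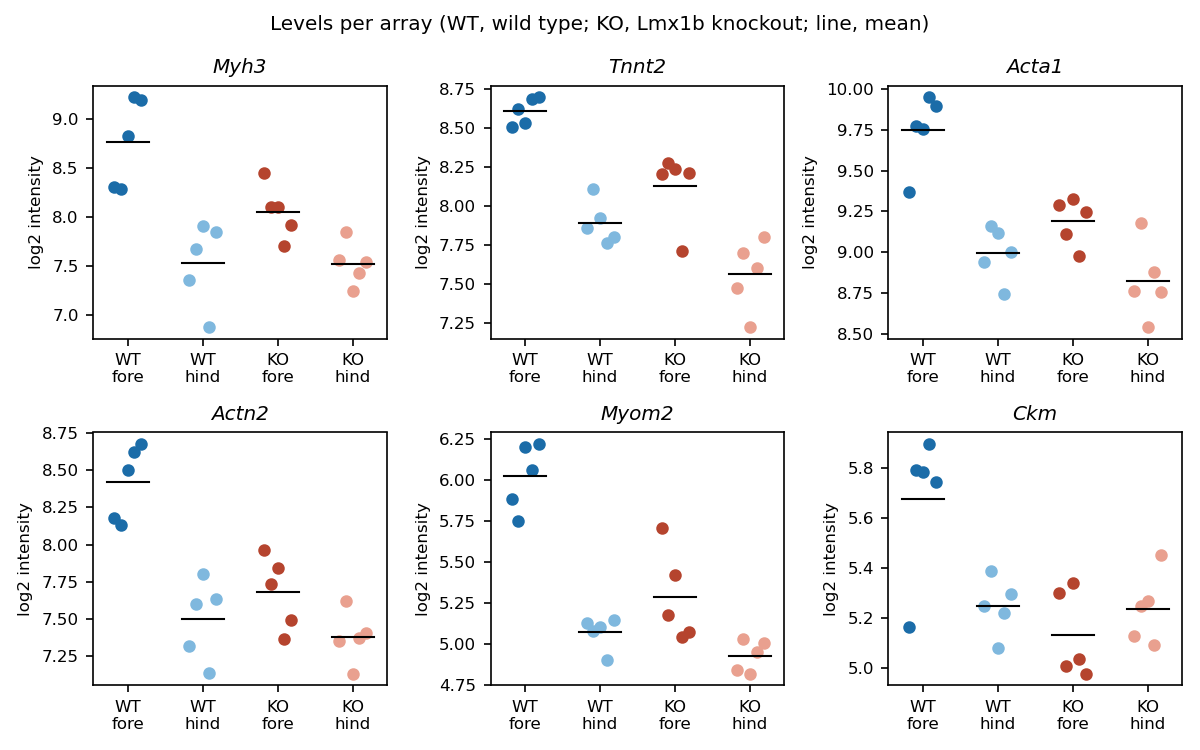
Log2 intensity (vertical axis) of Myh3, Tnnt2, Acta1, Actn2, Myom2 and Ckm on each array, by genotype and limb type (horizontal axis); points are arrays and lines are group means. Wild-type forelimbs lie above every other limb for Tnnt2, Acta1, Actn2 and Myom2, while 1 Ckm forelimb lies with the hindlimbs.

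Slow, fast and developmental isoforms were all lower in the wild-type hindlimb. All 4 slow isoforms (Myh7, Tnnt1, Tnni1 and Tnnc1), all 5 fast ones (Myl1, Mylpf, Tnnt3, Tnni2 and Tnnc2) and all 5 embryonic, fetal or cardiac ones (Myh3, Myh8, Myl4, Actc1 and Tnnt2) fell, with median log2 changes of -0.58, -0.59 and -0.75. In knockouts the medians were -0.32, -0.31 and -0.53, with 0, 1 and 1 genes that fell. The differences between these medians were not tested.

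Of the 31 genes that fell in the wild-type hindlimb, 24 also passed whichever of the 20 arrays was left out. The other 7 were Mybpc1, Actc1, Tnni2, Tnnc1, Tnnc2, Ldb3 and Ckm. All 7 missed the threshold without wild-type hindlimb replicate 9, with adjusted p from 0.0507 for Tnni2 to 0.124 for Mybpc1. Tnni2 missed in no other of these fits. Tnnc2 also missed without wild-type forelimb replicate 4 or 5, and Tnnc1 without forelimb replicate 3, 4 or 5. Actc1 and Ldb3 missed without any of these 3 forelimbs or hindlimb replicate 6, and Mybpc1 without any of those 4 arrays or hindlimb replicate 7. Ckm missed in 8 fits, those without forelimb replicate 2, 3, 4 or 5 or hindlimb replicate 6, 8, 9 or 10. Among male arrays alone 27 genes fell, with a mean change over the 36 genes of -0.712, against -0.625 with all arrays. Over all genes, 419 passed in either direction among male arrays, against 650 with all arrays. In knockouts, Tnnt2 passed in all of these fits. Myl1 missed without knockout forelimb replicates 1 or 3 or hindlimb replicate 8 (adjusted p = 0.0549, 0.0651 and 0.0507). Klhl41 missed in 8 of them (adjusted p up to 0.141): those that dropped wild-type forelimb 3, knockout forelimb 1, 2, 3 or 5, or knockout hindlimb 6, 8 or 10. The count in knockouts was 1 gene without knockout forelimb replicate 1, forelimb replicate 3 or hindlimb replicate 8, and 0 when only the knockout arrays were fitted. Over all genes these fits called 68, 60, 73 and 44 in that order, in either direction, against 123.

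The second question was what loss of Lmx1b changed. In forelimbs 9 of the 36 genes fell in knockouts, none rose, and all 36 changes were below 0; 1.03% of all genes fell and 0.241% rose. The 9 were the slow heavy chain Myh7, the actin Acta1, the troponins Tnnt2 and Tnnt3, the myomesins Myom1 and Myom2, the Z disc genes Actn2 and Ldb3, and Ckm. The median change was -0.40, against 0.00 for all genes. Knockout arrays lay below all wild-type arrays in 10 genes (1.72% of all genes), namely all of those but Ldb3 and Ckm, plus Tnnt1, Myoz1 and Synpo2l. The comparison uses the same wild-type forelimbs as the limb comparison above, so both rest on the level of that group.

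The largest change was that of Actn2, which fell by 0.74 (SE 0.136, adjusted p = 0.00552), 1.67-fold, from 8.42 ± 0.253 (SD, n = 5) to 7.68 ± 0.246. Myom2 fell by 0.74 (SE 0.109, adjusted p = 0.000519) and Myh7 fell by 0.71 (SE 0.159, adjusted p = 0.025). Myh3 had a log2 change of the same size, -0.71 (SE 0.200, adjusted p = 0.0917), but a larger spread and did not pass. Tnnt3 fell by 0.63 (SE 0.126, adjusted p = 0.011) and Myom1 fell by 0.63 (SE 0.148, adjusted p = 0.0351). Acta1 fell by 0.56 (SE 0.114, adjusted p = 0.0135), Ckm fell by 0.54 (SE 0.113, adjusted p = 0.0149), Tnnt2 fell by 0.48 (SE 0.107, adjusted p = 0.0245) and Ldb3 fell by 0.41 (SE 0.086, adjusted p = 0.017). The smallest changes were those of Xirp1 at -0.11, Actc1 at -0.16 and Tnnt1 at -0.16, with adjusted p of 0.657, 0.619 and 0.28. By role, 1 of 8 thick filament genes, 3 of 11 thin filament genes, 2 of 3 titin and M band genes, 2 of 7 Z disc genes, 0 of 4 coupling genes and 1 of 3 cytoskeleton and energy genes fell. Of the coupling genes, Casq2 changed by -0.38, Ryr1 by -0.31, Cav3 by -0.21 and Cacna1s by -0.18, with adjusted p from 0.133 to 0.433. Their unadjusted p was under 0.05 for 2 of these 4. The share of all genes under that unadjusted threshold was not computed for forelimbs, so this count has no background beside it.

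Of the 9 genes, Tnnt3, Myom2 and Actn2 passed whichever array was left out. Of the wild-type forelimbs, dropping replicate 4 or 5 left 3 genes, dropping replicate 3 left 5 and dropping replicate 1 gave 14. Dropping knockout forelimb replicate 4 left 3. Over all genes, in either direction, these fits called 133, 124, 136, 436 and 124 in that order, against 253 with all arrays. Among male arrays alone, which leaves 2 knockout forelimbs, none of the 36 genes passed, and 37 of all genes did. The mean change over the 36 genes was -0.375 there, against -0.424 with all arrays. With the Y-linked level of each array as a covariate 5 of the 36 passed, Myh7, Myom2, Actn2, Ldb3 and Ckm, and 139 of all genes.

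In hindlimbs none of the 36 genes passed in either direction (limma), where 0.226% of all genes fell and 0.00502% rose. The median change was -0.10, 28 of 36 changes were below 0, and no gene had all knockout arrays below all wild-type arrays (0.903% of all genes did). At an unadjusted p under 0.05 there were 2 genes, against 5.75% of all genes: Tnnt2, with a change of -0.33 (SE 0.107, adjusted p = 0.498) and a 95% interval of -0.55 to -0.11, and Myoz1, with -0.26 (SE 0.076, adjusted p = 0.308) and -0.42 to -0.11. Myh3 differed by -0.01 with an interval of -0.42 to 0.41, and Actn2 by -0.12 with -0.41 to 0.16. For these 2 genes the forelimb estimate, which has an error of its own, lay outside the hindlimb interval. The forelimb estimate of Tnnt2 lay inside its hindlimb interval. Among male hindlimbs the mean change over the 36 genes was 0.020, against -0.088 over all hindlimbs.

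**Figure D4:**
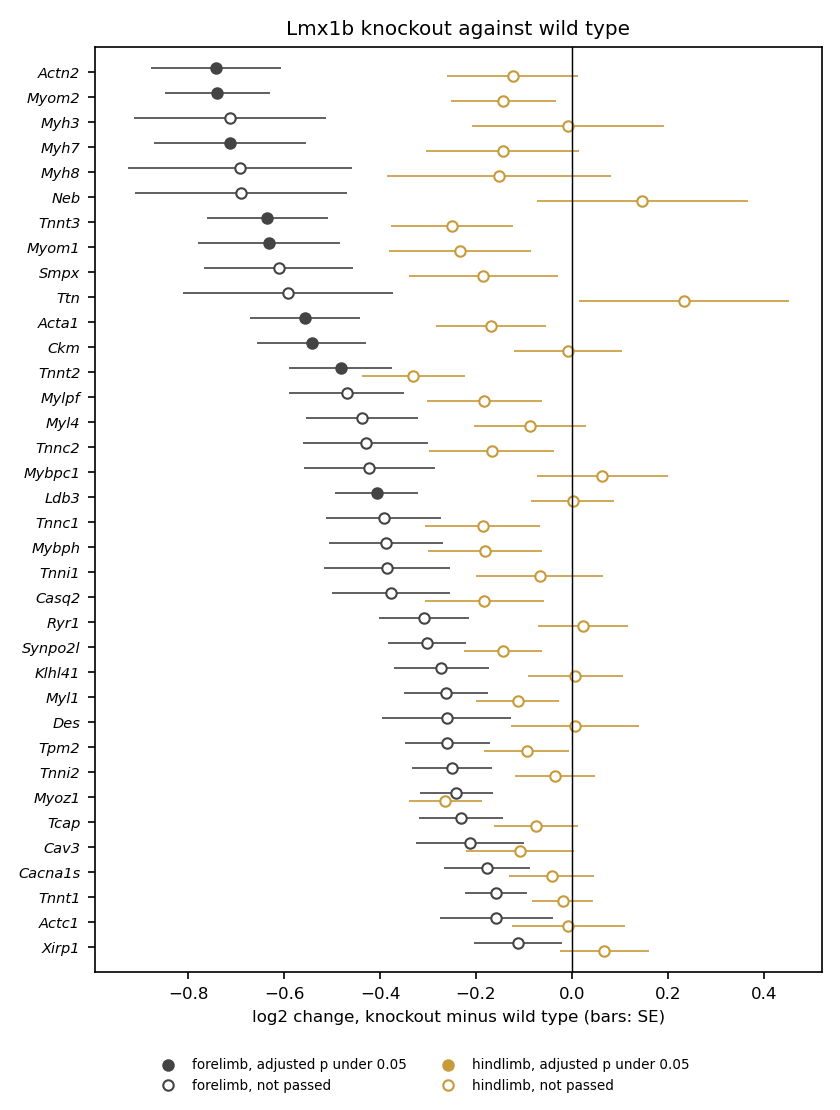
Log2 change, knockout minus wild type (horizontal axis, bars are standard errors), of each of the 36 genes in forelimbs and in hindlimbs; filled points passed adjusted p under 0.05. Forelimb changes run from -0.74 to -0.11 with 9 filled points, hindlimb changes from -0.33 to 0.23 with none.

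Whether the effect of genotype differs between limb types was tested as the hindlimb change minus the forelimb change, which is equally the knockout limb difference minus the wild-type one. No gene of the 36 passed (limma), and 0.0201% of all genes did. The difference was above 0 for 35 of 36 genes, with a median of 0.28, and 13 genes had an unadjusted p under 0.05, against 3.63% of all genes. The smallest adjusted p was that of Myom2, 0.845, with a difference of 0.60 (SE 0.155, 95% interval 0.28 to 0.92). The largest differences were those of Neb (0.84, 0.19 to 1.49) and Ttn (0.83, 0.18 to 1.47). Ckm passed when wild-type forelimb replicate 1 was left out (difference 0.66, adjusted p = 0.0434).

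Averaged over both limb types, 10 of the 36 genes fell in knockouts and none rose, against 1.57% of all genes that fell and 0.466% that rose. They were Myh7, Mylpf, Acta1, Tnnt2, Tnnt3, Myom1, Myom2, Actn2, Myoz1 and Synpo2l, and the median of the 36 changes was -0.26. Tnnt2 fell by 0.41 (SE 0.076, adjusted p = 0.0044), Myom2 fell by 0.44 (SE 0.077, adjusted p = 0.00261) and Tnnt3 fell by 0.44 (SE 0.089, adjusted p = 0.00876). The dim gene Myoz1 fell by 0.25 (SE 0.054, adjusted p = 0.0136); its knockout arrays read 4.61 or less and its wild-type arrays 4.53 or more. Mylpf fell by 0.33 (SE 0.085, adjusted p = 0.0466) and Synpo2l fell by 0.22 (SE 0.057, adjusted p = 0.0459), although neither passed in forelimbs or hindlimbs alone. Acta1, Tnnt2, Tnnt3, Myom2, Actn2 and Myoz1 passed whichever array was left out. Dropping any 1 of 11 arrays left 6 genes: in wild type these were forelimbs 4 and 5 and hindlimbs 7, 8 and 10, and in knockouts forelimbs 2, 4 and 5 and hindlimbs 6, 8 and 9. Over all genes those 11 fits called 260 to 395, in either direction, against 406 with all arrays. Among male arrays alone Tnnt2 was the gene of the 36 that passed, and 67 of all genes did.

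Muscle genes outside the 36 were read from lists that were drawn up with earlier results of these data known. Beside the counts below, 2.49% of all genes fell and 0.772% rose in the wild-type hindlimb, and 1.03% fell in knockout forelimbs. Of 31 other sarcomere genes, 10 fell in the wild-type hindlimb and none rose, with a median change of -0.23. Myot, the Z disc protein myotilin, fell by 0.94 (SE 0.152, adjusted p = 0.00103), Csrp3, a Z disc LIM protein, fell by 0.57 (SE 0.088, adjusted p = 0.000642), and Lmod3, a thin filament nucleator, fell by 0.56 (SE 0.090, adjusted p = 0.00102). In knockout forelimbs 2 of them fell: Myot fell by 0.73 (SE 0.152, adjusted p = 0.0155) and Csrp3 fell by 0.42 (SE 0.088, adjusted p = 0.0155), and each missed without wild-type forelimb replicates 3, 4 or 5 or knockout forelimb replicate 4, with adjusted p up to 0.0637. Of 15 other coupling genes 9 fell in the wild-type hindlimb, among them the calcium pump gene Atp2a1, which fell by 0.83 (SE 0.119, adjusted p = 0.000378), and none in knockout forelimbs. In these comparisons, wild-type hindlimb first, 3 and 2 of 12 energy metabolism genes fell, 2 and 1 of 11 membrane complex genes, and 6 and 0 of 11 neuromuscular junction genes. The fetal acetylcholine receptor subunit Chrng fell by 0.53 (SE 0.079, adjusted p = 0.000495) in the wild-type hindlimb.

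Regulators upstream of the sarcomere were read in the same way. Of 17 myogenic regulator and fusion genes, 9 fell in the wild-type hindlimb, 2 in the knockout hindlimb, 1 in knockout forelimbs and 0 in knockout hindlimbs against wild type. Of all genes, 2.49%, 0.441%, 1.03% and 0.226% fell in these comparisons, in that order. Myog, the regulator of terminal differentiation, fell by 0.67 (SE 0.108, adjusted p = 0.00104) in the wild-type hindlimb, and Mymk, which drives myoblast fusion, fell by 0.73 (SE 0.111, adjusted p = 0.00054). Myod1 fell by 0.55 (SE 0.126, adjusted p = 0.0161) there, but missed when wild-type forelimb 4 or 5 or hindlimb 9 was dropped (adjusted p up to 0.0643). Between forelimbs of the 2 genotypes Myod1 changed by -0.04 (95% interval -0.30 to 0.22), Myog by -0.13 (-0.36 to 0.09) and Myf5 by -0.17 (-0.36 to 0.02), and none of them passed. Myf6, the late-acting regulator, fell by 0.52 (SE 0.088, adjusted p = 0.00205) in knockout forelimbs and passed whichever array was left out, though not among male arrays (adjusted p = 0.23). Of the 17 genes, 14 changed below 0 between forelimbs of the 2 genotypes, against 9883 of all 19936 genes. The mean of 6 regulators (Pax3, Pax7, Myf5, Myod1, Myog and Myf6) was 6.40 in wild-type forelimbs, 5.99 in wild-type hindlimbs, 6.23 in knockout forelimbs and 5.99 in knockout hindlimbs. The mean of the 36 sarcomere genes minus the mean of these 6 on the same array was 0.81 ± 0.103 (SD, n = 5) in wild-type forelimbs, 0.59 ± 0.083 in wild-type hindlimbs, 0.55 ± 0.122 in knockout forelimbs and 0.50 ± 0.081 in knockout hindlimbs. Whether this subtraction accounts for the amount of muscle was not tested. On this measure the lowest wild-type forelimb, at 0.689, was nearly level with the highest knockout forelimb, at 0.686.

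Markers of other tissues were read beside these results, where 2.49% of all genes fell in the wild-type hindlimb and 1.03% in knockout forelimbs. Of 5 macrophage markers, 3 fell in the wild-type hindlimb and 2 in knockout forelimbs, and their mean level ranged from 5.39 to 5.63 in wild-type forelimbs, 5.11 to 5.33 in wild-type hindlimbs, 5.13 to 5.45 in knockout forelimbs and 4.95 to 5.11 in knockout hindlimbs. In the same 2 comparisons, 1 and 2 of 3 nerve markers fell, 1 and 1 of 5 endothelial, 1 and 0 of 5 epidermal, 2 and 0 of 9 smooth muscle and pericyte, and 0 and 1 of 4 tendon markers. None of the 5 cartilage and 3 erythroid markers passed. The erythroid mean was nevertheless separate between forelimbs of both genotypes, at 8.22 to 8.41 in wild type and 7.22 to 8.04 in knockouts, with 2 of the 3 markers not overlapping (1.72% of all genes were lower without overlap). Its mean log2 change of -0.49 there stands beside -0.42 over the 36 sarcomere genes. Between the wild-type limbs it overlapped, with hindlimbs at 7.90 to 8.50, and knockout hindlimbs ranged from 7.75 to 8.47. The nerve mean was also separate between forelimbs, at 6.76 to 6.87 in wild type and 6.46 to 6.57 in knockouts, while hindlimbs ranged from 6.65 to 6.79 and from 6.33 to 6.59. The tendon mean was 7.47 to 7.72 in wild-type forelimbs, above the 7.07 to 7.45 of knockout forelimbs, the 6.89 to 7.44 of wild-type hindlimbs and the 7.06 to 7.33 of knockout hindlimbs. Of its 4 markers, 1 did not overlap between forelimbs, beside the same 1.72% of all genes. The endothelial mean overlapped in both comparisons, at 7.07 to 7.43 in wild-type forelimbs, 6.82 to 7.25 in wild-type hindlimbs and 6.86 to 7.22 in knockout forelimbs. The cartilage mean spread widely among wild-type forelimbs, from 6.41 to 7.75, and ranged from 6.21 to 7.59 in knockout hindlimbs. Mean levels of the epidermal markers ranged from 8.14 to 8.81 and 7.77 to 8.26 in wild-type forelimbs and hindlimbs, and from 7.81 to 8.82 and 7.54 to 8.66 in the knockout ones. The part of these tissues in the sarcomere result was not tested. The 6 heart markers had means of 4.37 to 4.66 on all arrays, below the medians over all probe sets, and none of them passed in any comparison.

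**Figure D5:**
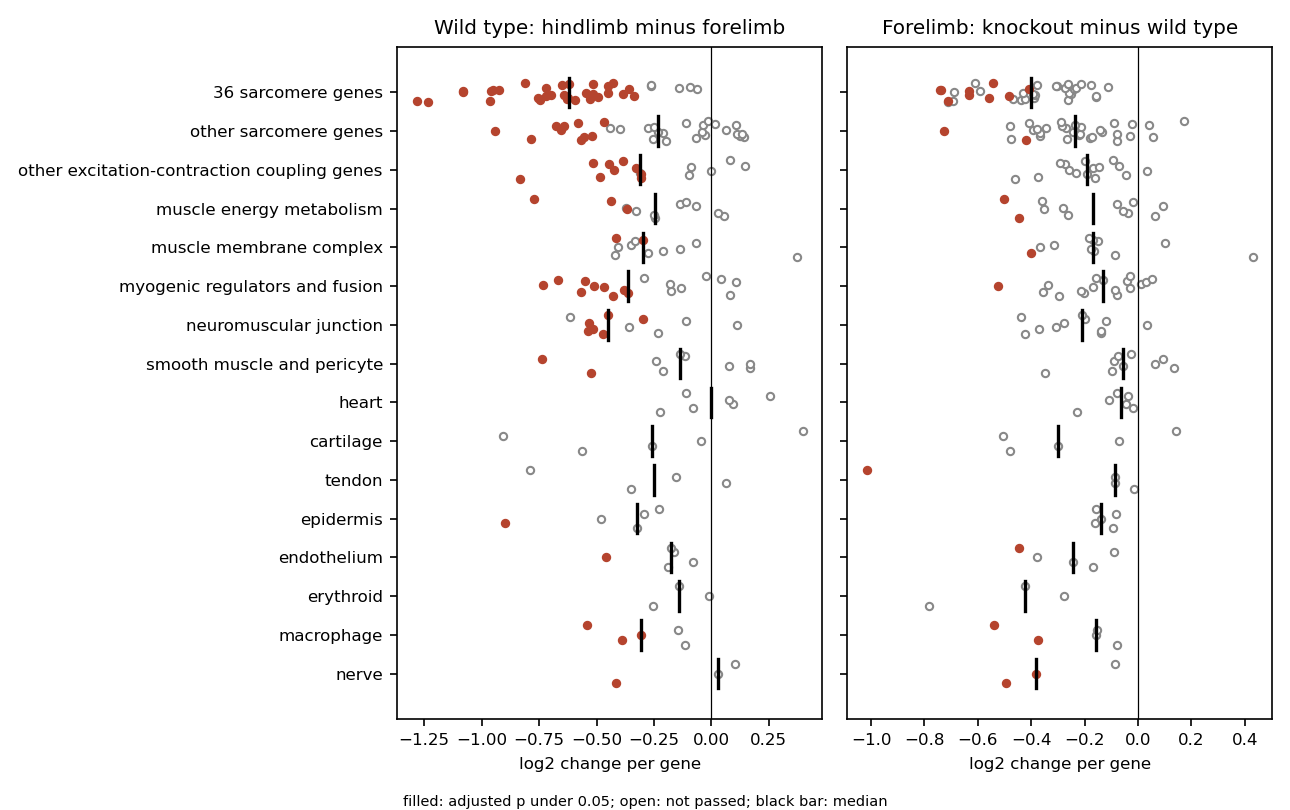
Log2 change of each gene (horizontal axis, points) in the 36 sarcomere genes and in 15 other lists of muscle genes and tissue markers (vertical axis), one panel a comparison. The 36 genes have a median of -0.62 in the wild-type limb comparison and -0.40 in the forelimb genotype comparison, and the heart markers lie around 0.

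The 36 genes also varied together among limbs of 1 group. After each group's mean was removed, the median correlation over 630 pairs of genes was 0.629 across the 20 arrays, and 610 pairs were above 0. Each gene was then set against the mean of the other 35. The correlation was highest for Actn2 (0.950) and lowest for Myoz1 (0.040), with a median of 0.813, and it was above 0.5 for 32 genes. These are descriptions across arrays that share tissue, labelling and normalization, and the 3 lowest values were those of the 3 genes with a mean level under 5.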

How the data were processed

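The deposited values are linear intensities, 1 per probe set and array, made by the authors with RMA per the submitters' processing notes; the sources used here give no software version, background treatment or annotation. They ran from 1.65 to 13033, with array medians of 28.6 to 31.8, and log2 was taken here with no pseudocount. Of 35512 probe sets, 21789 carried 1 gene symbol, named through the platform table and RefSeq genes on GRCm38.p6. The probe set with the highest mean stood for a gene, which left 19936 genes. The number of arrays, 5 a group, limits the precision.

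A single limma 3.58.1 fit (R 4.3.3; lmFit, contrasts.fit, eBayes) on 4 group means gave every comparison, with Benjamini-Hochberg adjustment over all genes and a threshold of 0.05. It was tested on simulated data. "Fell" and "rose" mean past that threshold. Groups came from the labels. The genes and all gene lists were chosen with earlier results of these data known, so counts over a list are descriptions. Values of every array were to be given for genes past the threshold in any comparison and for the 3 largest and 3 smallest forelimb changes, the rest by range, and of the other lists the genes past the threshold; of those only examples are named. Alternatives covered array scaling, pseudocount, dim genes, probe set choice, sex, side, replicate block, array weights, the prior, the groups fitted and each array left out. Promoter windows were searched in Python 3.11.15.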

Additional observations from a re-analysis of the deposited data

Results flagged for a closer look

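Dixon's test was run on 148 sets of 5 arrays: each of the 36 genes, and their mean per array, in each group. In 8 of these sets the highest or lowest array stood apart from the others. Chance alone gives about 1 in 20, or 7.4. Knockout hindlimb replicate 7 was the highest of its group for Mylpf (7.05), Tnnt3 (7.47) and Smpx (6.05), and wild-type forelimb replicate 1 the lowest for Tnni2 (5.92) and Ckm (5.16). Knockout forelimb replicate 4 was the lowest for Tnnt2 (7.71), wild-type hindlimb replicate 9 the lowest for Myom2 (4.90), and wild-type hindlimb replicate 8 the highest for Ryr1 (5.03).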

How the results depend on the processing

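The count of 31 sarcomere genes that fell in the wild-type hindlimb stayed within 1.5 times under every alternative, at 24 to 32 with an array left out. With an array left out, 311 to 848 of all genes passed in that comparison in either direction, against 650 in the main fit. Hindlimbs gave none of the 36 genes for genotype in any alternative, where 13 to 82 of all genes passed. Genotype over both limb types gave 6 of the 36 genes with each array centred on its median, 1 among male arrays, and 6 to 14 with an array left out. Over all genes these alternatives called 255, 67 and 260 to 595, in either direction, against 406 in the main fit. Genotype in forelimbs gave 5 with a covariate for the Y-linked level, 0 among male arrays, and 3 to 14 with an array left out. The counts over all genes were 139, 37 and 124 to 436, against 253 in the main fit. Limb type in knockouts gave 1 among male arrays, 5 with array weights, 0 when only the groups compared were fitted, and 1 to 4 with an array left out. Here all genes gave 13, 210, 44 and 60 to 140, against 123 in the main fit. The difference between genotype effects gave 0 to 1, where 0 to 10 of all genes passed. The mean change over the 36 genes between hindlimbs of the 2 genotypes turned from -0.088 to 0.020 among male arrays; the cause was not tested. Without the 3 genes under a mean of 5, the means of the remaining 33 were 7.43 in wild-type forelimbs, 6.76 in wild-type hindlimbs, 6.99 in knockout forelimbs and 6.67 in knockout hindlimbs, since fewer and brighter genes were averaged. A replicate block on side and number gave 6 genes for genotype over both limb types, 8 in forelimbs, 0 in hindlimbs, 30 for limb type in wild type, 2 in knockouts and 0 for the difference. With this block the counts over all genes were 393, 275, 46, 628, 115 and 2 in that order. Same-position arrays correlated at -0.31 to 0.26 and 3 of 20 correlated best with their own position. Pairs of wild type and knockout cannot share an embryo, so only forelimb and hindlimb pairs of 1 genotype bear on pairing. Among those the correlations ran from -0.23 to 0.23, and only the wild-type pair at right number 2 correlated best with its own position. At right number 2 the forelimb was male and the hindlimb female in wild type, and the reverse in knockouts. The numbers therefore do not pair the limbs throughout, and whether some limbs shared an embryo cannot be told. Genes near the array medians, such as Myoz1, Tcap and Xirp1, can show little change on this scale.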
